A study of Mus musculus with 4 samples.

Results

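Pericentral sinusoidal endothelial cells of premalignant mouse liver were examined in a pair of single-cell RNA libraries, one labelled Mef2d KO and one labelled WT. A cell was taken as a member when its barcode held at least 4 unique molecules (UMIs, the deposited count of distinct RNA copies) of the sinusoidal genes Stab2, Clec4g, Gpr182 and Oit3 together. It also had to hold no UMI of the leukocyte gene Ptprc, fewer than 3 of the Kupffer cell gene Clec4f, and at least 2 of Wnt2, Wnt9b and Rspo3 together. Barcodes first had to hold at least 2000 UMIs and 300 genes, with at most 25% of UMIs from mitochondrial genes. The rule found 1266 members among 7989 passing barcodes of the library labelled KO and 2631 among 12267 of the library labelled WT. That is 3897 of the 23839 barcodes deposited for the premalignant stage and of the 45547 in all 4 libraries. The other pair of libraries was made from early hepatocellular carcinoma (eHCC), again one per label. Both premalignant groups are tissue of mice, digested to single cells with a commercial dissociation kit and read with 10x Genomics 5' chemistry, as the labels give it. The sources used here do not say which part of Mef2d was deleted, in which cells, how the premalignant state was produced, the age of the mice, or how many animals went into a library. By its title, the study concerns how cancer precursors that express MEF2D remodel macrophages resident in the liver.

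The liver lobule runs between portal tracts, where blood enters, and a central vein, where it leaves, and the sinusoidal endothelium that lines the path differs along it. Endothelium near the central vein makes the ligands Wnt2 and Wnt9b and the Wnt amplifier Rspo3. These signal to neighbouring hepatocytes and keep up their central programme of glutamine synthesis and drug metabolism. Sinusoidal cells in general are thin, fenestrated scavengers that clear waste from blood through receptors such as Stab2, a hyaluronan receptor, and its relative Stab1. On the portal side they are known to carry more of the Notch ligand Dll4 and of ephrin-B2, both genes of arterial identity. MEF2D is a MADS-box transcription factor, and its relatives MEF2A and MEF2C are known in endothelium as mediators of the flow-responsive genes Klf2 and Klf4.

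The members had medians of 6512 UMIs and 2858 genes per barcode in the library labelled KO and 8084 UMIs and 3199 genes in the library labelled WT. Mitochondrial UMIs made up a median of 4.17% and 4.18%. The passing barcodes of these libraries had medians of 5076 and 5649 UMIs. The libraries labelled KO and WT shared 46 barcode sequences among all deposited, 3 of them among members. Each shared between 27 and 38 with an eHCC library, none of them between members. Each group is 1 library, so no test between groups exists, and every difference below describes these libraries. Intervals are exact 95% intervals that cover counting error only. Levels are CPM, the UMIs of a gene summed over a set of barcodes and scaled to a fixed total, and a ratio is the log2 of one such level over another.

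Wnt2 was the ligand that brought nearly all members in. It had a UMI in 99.7% of members labelled KO and 99.8% of those labelled WT, while Rspo3 had one in 25.3% and 20.1% and Wnt9b in 18.5% and 14.0%. All 3 genes were found together in 138 and 224 members. Leukocyte barcodes, defined here by a Ptprc UMI and none of the 4 sinusoidal genes, should lack these ligands and were taken as a background. In them Wnt2 had a UMI in 2.08% (labelled KO) and 3.45% (labelled WT), Rspo3 in 1.36% and 1.51% and Wnt9b in 0.13% and 0.16%, at medians of 4464 and 3968 UMIs. This definition leaves out leukocyte barcodes that held a sinusoidal UMI, so the background of endothelial RNA may be higher than these values. The members carried the general sinusoidal programme as well. The receptor tyrosine kinase gene Kdr stood at 2653 and 2266 CPM in members and 17.0 and 30.8 CPM in leukocytes of the libraries labelled KO and WT. The hyaluronan receptor gene Lyve1 stood at 468 and 544 CPM in members and at 151 and 258 CPM in all other passing barcodes, which include other sinusoidal ones. Members were chosen by the 4 sinusoidal genes that the leukocytes had to lack. These levels therefore describe the choice and are no test of it.

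The promoters of the ligand genes are shown because their RNA chose the members. RefSeq windows of build GRCm38.p6 were available for Wnt2 and Wnt9b, and the 250 bases before each start are printed 5′ to 3′ on the gene's strand. Capitals mark GATAA or its complement TTATC, the letters of the core site of GATA factors, a family that includes the sinusoidal regulator GATA4. Wnt2 (chr6:18030446-18030695, minus strand) holds 2 matches and Wnt9b (chr11:103749822-103750071, minus strand) holds 0. Of 32851 such windows over all genes, 22.6% hold at least 1 match and 4.28% hold at least 2. A match describes letters in this window and is not a measured binding site.
Wnt2: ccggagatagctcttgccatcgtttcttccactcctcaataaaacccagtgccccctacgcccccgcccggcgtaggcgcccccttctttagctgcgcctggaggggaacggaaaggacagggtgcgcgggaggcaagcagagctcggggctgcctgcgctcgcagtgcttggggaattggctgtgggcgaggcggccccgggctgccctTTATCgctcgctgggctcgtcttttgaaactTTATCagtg
Wnt9b: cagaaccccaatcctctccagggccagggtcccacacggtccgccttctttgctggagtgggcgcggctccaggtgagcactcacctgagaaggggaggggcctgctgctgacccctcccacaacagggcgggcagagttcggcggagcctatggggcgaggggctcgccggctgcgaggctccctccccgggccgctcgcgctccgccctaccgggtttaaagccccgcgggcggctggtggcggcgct

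The sinusoidal sum of the members ranged between 4 and 255 UMIs with a median of 47 in the library labelled KO, and between 4 and 341 with a median of 64 in the library labelled WT. It lay at 7 or under in 12 and 14 members, so few members sat near that threshold. The Wnt threshold cut through a continuous range: 277 and 528 members held exactly 2 ligand UMIs, and 363 and 765 sinusoidal barcodes held 1 and were left out. Those just inside had 481.9 CPM of Kit, the stem cell factor receptor, in the library labelled KO and 279.98 CPM in the library labelled WT. Those just outside had 314 and 189 CPM. Msr1, a scavenger receptor, ran the other way, with 167 and 278 CPM just inside and 291 and 381 CPM just outside. Other genes differed less evenly: Thbd, which encodes thrombomodulin, had 114 and 77.7 CPM just inside and 73.1 and 78.7 CPM just outside. Fabp4, a fatty acid carrier gene, had 984 and 1333 CPM just inside and 812 and 1317 CPM just outside. Clu, the clusterin gene, had 26.8 and 122 CPM just inside and 137 and 93.7 CPM just outside, so its direction differed between the libraries. A Ptprc UMI kept 459 and 726 barcodes out that met the sinusoidal and Wnt steps, and Clec4f kept out 1 and 35 more.

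Against sinusoidal barcodes with no ligand UMI (553 labelled KO and 1426 labelled WT), the members were set apart by genes of central vein endothelium that the rule did not use. All 9 genes of a list of central-side endothelial genes were higher in members in both libraries, and 8 of 9 were past 1.5-fold in each. Their median ratios were 1.87 and 2.07, against 0.02 and −0.01 over all genes measured. Past 1.5-fold higher were 6.38% of 11814 genes in the library labelled KO and 5.56% of 12820 in the library labelled WT, and above 0 were 52% and 48.2%. Over the 11694 genes measured in both libraries, 252 were past 1.5-fold higher in both, of 737 labelled KO and 476 labelled WT. These barcodes were chosen by genes of the same programme, so the values describe the choice and are no test of it.

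Lhx6, a LIM homeobox transcription factor, had 86.7 CPM in members and 5.06 CPM in other sinusoidal barcodes of the library labelled KO, and 58.3 and 2.36 CPM in the library labelled WT. Its ratios of 4.10 (3.37 to 4.94) and 4.63 (4.02 to 5.31) were the highest of the list. Cdh13, the cadherin without a cytoplasmic tail, followed with 245 and 30.7 CPM (2.997, 2.69 to 3.32) and 198 and 28.5 CPM (2.80, 2.62 to 2.98). Kit stood at 623 and 145 CPM (2.11, 1.96 to 2.25) and at 437 and 104 CPM (2.07, 1.97 to 2.16). Thbd, the anticoagulant receptor thrombomodulin, stood at 225 and 61.5 CPM (1.87) and at 184 and 62.4 CPM (1.56). Fabp4, a fatty acid carrier of endothelium, was the most abundant, with 2352 and 854 CPM (1.46) and 2370 and 1539 CPM (0.62). The ratio of Fabp4 was the one that differed most between the libraries among these 5 genes, and Emcn, a sialomucin, was the gene of the list that missed 1.5-fold (0.48 and 0.36).

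By a fixed rule of size, 12 genes were named in each direction among 8359 eligible genes. On the higher side, beside Lhx6, Cdh13, Kit and Thbd, stood the leukotriene enzyme gene Ltc4s (2.22 and 1.91), the galectin gene Lgals1 (1.75 and 1.92) and the plakoglobin gene Jup (1.64 and 1.89). The Notch-modifying glycosyltransferase gene Lfng (1.91 and 1.83), the dickkopf family gene Dkk3 (1.93 and 1.92), Olfm1 (1.90 and 1.72), Plppr5 (2.84 and 3.38) and Olfr1396 (2.33 and 2.01) completed them. Lgals1 had the highest level, with 681.5 CPM in members and 203 CPM in other sinusoidal barcodes labelled KO, and 651 and 172 CPM labelled WT.

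Portal-side genes lay mostly on the lower side. Of 13 portal-side genes 11 were past 1.5-fold lower in the library labelled KO and 10 in the library labelled WT, where 11.2% and 8.28% of all genes were, and the medians were −1.14 and −0.94. The 11 include Clu, whose sign changed with the sinusoidal threshold, as given below. Only Ecm1, an extracellular matrix gene, was above 0 in both (0.74 and 0.47). Msr1 had 66.7 CPM in members and 488 CPM in other sinusoidal barcodes labelled KO (−2.87, −3.01 to −2.73), and 136 and 536 CPM labelled WT (−1.98, −2.05 to −1.92). Efnb2, which encodes ephrin-B2, had 31.8 and 149 CPM (−2.23) and 54.3 and 207 CPM (−1.93). Dll4 had 79.0 and 256 CPM (−1.69) and 86.5 and 266 CPM (−1.62). Vegfc, a growth factor for lymphatic vessels, was close to absent in members, with 1.22 CPM against 35.8 CPM labelled KO (−4.87, −5.92 to −3.97) and 4.12 against 72.6 CPM labelled WT (−4.14, −4.46 to −3.83). Slc45a4 was the lowest of the named genes (−5.39 and −4.78).

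The remaining named genes on the lower side were Mecom, a zinc finger transcription factor (−3.03 and −2.28), the orphan receptor gene Gprc5c (−2.69 and −2.30), Ajuba (−2.84 and −2.33), Tox2 (−2.22 and −1.66), Galnt15 (−1.76 and −1.93), Efnb1 (−1.58 and −1.89) and the netrin gene Ntn4 (−1.75 and −1.75). The adhesion receptor gene Adgrg6 had the lowest ratio of the portal-side list, with 1.44 and 88.8 CPM labelled KO and 5.28 and 108 CPM labelled WT. A single barcode held 23.1% and 14.2% of its UMIs in members. Clu, also of the portal-side list, changed sign with the sinusoidal threshold (−0.83 and −0.28; 2.16 and 0.71 at a sum of at least 8), so no direction is given for it. Over both libraries 611 genes were past 1.5-fold lower in both, of 1235 labelled KO and 805 labelled WT.

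**Figure D1:**
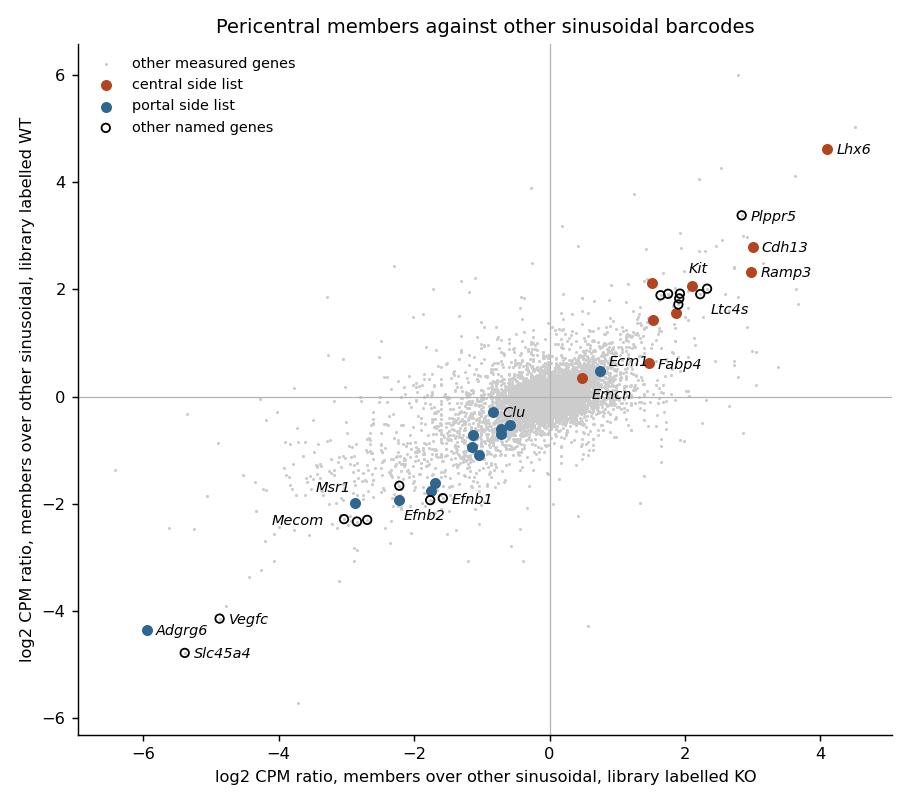
Each point is a gene, with its log2 CPM ratio of members over other sinusoidal barcodes in the library labelled KO (x axis) and in the library labelled WT (y axis); genes of the rule are left out. The 9 central-side genes lie above 0 in both libraries and the portal-side genes lie below 0 in both apart from Ecm1. Clu, of the portal-side list, changed sign at a sinusoidal sum of at least 8.

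Hepatocyte RNA moved with this comparison. Of 16 hepatocyte markers 0 were above 0 in either library, and their summed level was 844 CPM in members and 6630 CPM in other sinusoidal barcodes labelled KO, and 694 and 2429 CPM labelled WT. The median over single barcodes differed less, at 217 and 307 CPM labelled KO and 299 and 459 CPM labelled WT. A hepatocyte marker UMI was held by 77.9% of members and 76.3% of other sinusoidal barcodes labelled KO, and by 91.0% and 89.6% labelled WT. No marker of that list was at 0 UMIs in members. Stellate and fibroblast markers were higher in members, with 6 of 7 measured genes above 0 labelled KO and 8 of 9 labelled WT, and summed levels of 141 and 80.4 CPM and of 166 and 83.4 CPM. The part of these cells' RNA in the ratios was not tested. With barcodes of other lineage RNA or over 20000 UMIs left out, the central-side medians were 1.74 and 2.05 and the portal-side medians −1.23 and −0.94.

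The members were also deeper than the sinusoidal barcodes without a ligand UMI, whose medians were 4467 and 5625 UMIs. Every barcode was therefore thinned at random to 2000 UMIs, and the sinusoidal, Ptprc and Clec4f steps were applied again to the thinned counts. The barcodes found were placed in 4 bins by their ligand UMIs after thinning: 0, 1, 2 or 3, and 4 or more. They include barcodes that lost a Ptprc or Clec4f UMI in the thinning and so were not among the sinusoidal barcodes at full depth. The bins held 1111, 652, 481 and 225 barcodes labelled KO and 2845, 1231, 873 and 410 labelled WT. At equal depth, 8 of 9 central-side genes increased at every step in each library. Among the 13 portal-side genes, 9 labelled KO and 10 labelled WT decreased at every step. Kit stood at 292, 542, 667 and 882 CPM over the 4 bins labelled KO and at 209, 389, 578 and 695 CPM labelled WT. Cdh13 stood at 70.2, 177, 237 and 473 CPM and at 61.2, 134, 199 and 454 CPM. Msr1 stood at 384, 127, 54.1 and 6.67 CPM labelled KO and at 417, 201, 96.2 and 29.3 CPM labelled WT. Dll4 decreased in the same order, with 227, 123, 84.2 and 48.9 CPM and 208, 109, 85.3 and 34.1 CPM. Fabp4 stood at 994, 1331, 1910 and 5211 CPM labelled KO and at 1361, 1432, 2149 and 4844 CPM labelled WT, with its widest step into the highest bin.

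**Figure D2:**
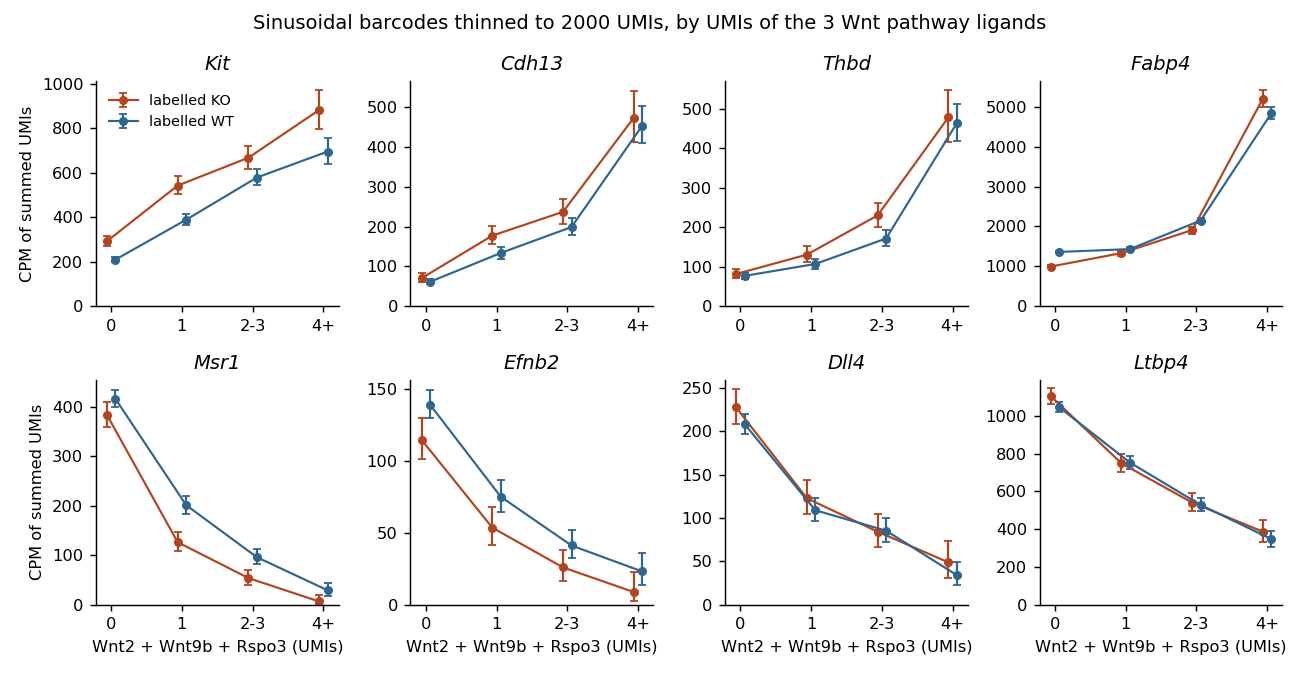
CPM of 4 central-side genes (top row) and 4 portal-side genes (bottom row) in sinusoidal barcodes found in counts thinned to 2000 UMIs, by the summed UMIs of Wnt2, Wnt9b and Rspo3 (x axis), with exact 95% counting intervals; the library labelled KO and the library labelled WT are drawn as separate lines. Kit, Cdh13, Thbd and Fabp4 increase with the ligand sum, and Msr1, Efnb2, Dll4 and Ltbp4 decrease.

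Genes for signalling to and from neighbouring cells differed member by member. Of 13 measured Notch pathway genes 4 labelled KO and 2 labelled WT were above 0, with medians of −0.42 and −0.47. The ligand gene Jag1 was lower (−1.73 and −1.94) and the target Hey1 was lower at a low level, with 0.78 and 5.74 CPM labelled KO and 1.21 and 10.1 CPM labelled WT. The ligand gene Dll1 was higher (0.80 and 0.44), as was Lfng. Bmp4, a bone morphogenetic protein gene, was the highest of the TGF-beta family list, with 15.5 and 0.68 CPM labelled KO (4.52, 2.64 to 7.58; 25.2% of its member UMIs in 1 barcode) and 17.4 and 0.54 CPM labelled WT (5.02, 3.79 to 6.65). Bmp2, the abundant family member that induces hepcidin in hepatocytes, stood at 1571 and 1136 CPM (0.47) and at 1697 and 1244 CPM (0.45). Tgfb2 was higher at 8.34 and 0.68 CPM (3.63) and 9.24 and 0.54 CPM (4.11). The tip cell gene Esm1 was lower, with 4.45 and 95.9 CPM (−4.43) and 15.3 and 158 CPM (−3.37). P-selectin (Selp), an adhesion receptor for leukocytes, had 24.3 and 2.70 CPM (3.17) and 17.6 and 2.47 CPM (2.84), and the scavenging chemokine receptor gene Ackr3 had 28.1 and 3.71 CPM (2.92) and 26.9 and 3.43 CPM (2.97). These genes stand at the ends of their lists and were chosen after their values were seen. Most of the member RNA of Selp and Bmp4 lay in members with a Wnt9b or Rspo3 UMI, as given below. In members with Wnt2 alone, Selp stood below its level in other sinusoidal barcodes in both libraries.

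General sinusoidal identity differed little between members and other sinusoidal barcodes. Of 23 identity genes 19 labelled KO and 17 labelled WT were above 0, with medians of 0.14 and 0.09, and 1 gene passed 1.5-fold in each library. This was Plxnc1, a semaphorin receptor gene, at 0.69 in both. Lyve1 was lower in members, with 468 and 541 CPM labelled KO (−0.21) and 544 and 596 CPM labelled WT (−0.13). Gpr182, a chemokine-scavenging receptor of the rule itself, stood at 1608 and 2306 CPM and at 1509 and 2132 CPM, below the other sinusoidal barcodes although the rule counted it in favour. Interferon response genes were lower in members: 5 of 30 labelled KO and 2 of 30 labelled WT were above 0, and the medians were −0.25 and −0.28. Isg15, a ubiquitin-like interferon-induced gene, had 60.5 and 184 CPM (−1.61) and 72.8 and 126 CPM (−0.80). Its ratio labelled KO was −0.22 after thinning, −0.57 with at most 10% mitochondrial UMIs and −0.58 at a sinusoidal sum of at least 8.

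Among the members, those with a Wnt9b or Rspo3 UMI were compared with those with Wnt2 alone. They numbered 414 of 1266 (32.7%, 30.1 to 35.4) labelled KO and 671 of 2631 (25.5%, 23.8 to 27.2) labelled WT, with medians of 7178 and 8760 UMIs against 6203 and 7816 UMIs for Wnt2 alone. Central-side genes stood higher again in 8 of 9 labelled KO and 9 of 9 labelled WT, with medians of 1.18 and 1.51. Past 1.5-fold higher were 6.36% and 5.62% of all genes measured here, lower 5.08% and 6.67%, above 0 were 50.9% and 49.1%, and the medians over all genes were 0.01 and −0.00. Genes of large vessel endothelium were above 0 in 11 of 16 measured labelled KO and 9 of 17 labelled WT, with 6 past 1.5-fold higher in each, 1 and 2 lower, and medians of 0.20 and 0.12. Their summed level was 11949 CPM with Wnt9b or Rspo3 and 11189.6 CPM with Wnt2 alone labelled KO, and 11229 and 10527 CPM labelled WT. The 8 genes at each end of this split were chosen after the values were seen, by the size rule used above. Vwf, von Willebrand factor, which larger vessels store for clotting, had 65.9 CPM in members with Wnt9b or Rspo3 and 1.73 CPM in those with Wnt2 alone labelled KO (5.26, 4.35 to 6.34). Labelled WT it had 59.9 and 4.02 CPM (3.90, 3.53 to 4.28). Entpd1, an enzyme that breaks down extracellular ATP, had 33.8 and 2.07 CPM (4.03) and 52.7 and 1.84 CPM (4.84). Lhx6 stood at 189 and 30.02 CPM (2.66) and at 152 and 22.6 CPM (2.75).

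Also higher with Wnt9b or Rspo3 were Gpm6a (3.30 and 4.01), the riboflavin transporter gene Slc52a3 (3.08 and 3.29), Tspan13 (2.79 and 2.79), Rbms3 (2.97 and 3.67) and Lrg1 (2.92 and 2.05). Selp had 65.0 and 1.90 CPM labelled KO and 58.7 and 2.01 CPM labelled WT, and Edn1, the vasoconstrictor endothelin, had 14.4 and 2.93 CPM and 37.4 and 1.26 CPM. Bmp4 had 42.8 and 0.35 CPM and 61.3 and 0.75 CPM. These 3 genes were also chosen after their values were seen. On the lower side, Lyve1 had 223 and 603 CPM labelled KO (−1.44, −1.55 to −1.32) and 299 and 637 CPM labelled WT (−1.09, −1.16 to −1.02). Dll4 (−1.52 and −0.98), the C-type lectin gene Cd209b (−1.39 and −1.61), Adam23 (−1.16 and −0.86), Flrt1 (−1.74 and −1.38), Gna14 (−1.52 and −1.60), Chst2 (−1.23 and −0.89) and Wisp1 (−1.06 and −0.86) were lower as well. Sinusoidal identity genes had medians of −0.32 and −0.18, with 6 and 7 of 23 above 0.

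**Figure D3:**
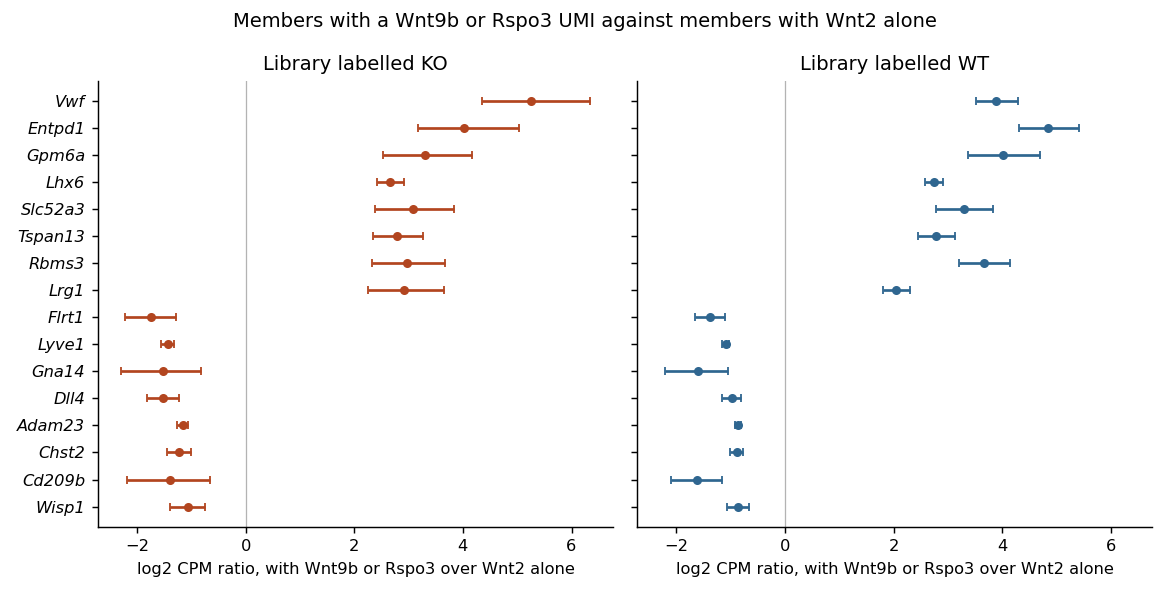
log2 CPM ratio of members with a Wnt9b or Rspo3 UMI over members with Wnt2 alone, with exact 95% counting intervals, for the 8 genes at each end in the library labelled KO (left) and the library labelled WT (right). Vwf, at 5.26 and 3.90, and Lhx6 are among the higher genes and Lyve1 and Dll4 among the lower ones in both libraries.

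Markers of other cells moved with this split too. Stellate and fibroblast markers were above 0 in 7 of 7 measured genes labelled KO and 9 of 9 labelled WT, with medians of 2.59 and 3.59. Their summed level was 230.0 CPM with Wnt9b or Rspo3 and 91.8 CPM with Wnt2 alone labelled KO, and 378 and 85.6 CPM labelled WT. None of the 11 markers was at 0 UMIs with Wnt9b or Rspo3, and 2 labelled KO and 1 labelled WT were at 0 with Wnt2 alone. For Dcn, a matrix proteoglycan gene, 1 barcode held 47.7% of the UMIs in members labelled KO, and 44.1% labelled WT. Hepatocyte markers were lower, with summed levels of 504 and 1031 CPM and of 369 and 818 CPM. Erythroid and platelet markers summed to 51.3 and 1763 CPM labelled KO and to 2949 and 2643 CPM labelled WT. A UMI of that list was held by 31.5% of all members labelled KO and 65.0% labelled WT. Cholangiocyte markers summed to 253 and 367 CPM labelled KO and to 9.81 and 137 CPM labelled WT, where 3 of 7 were at 0 with Wnt9b or Rspo3. A cholangiocyte marker UMI was held by 12.5% of all members labelled KO and 10.3% labelled WT. B cell markers summed to 113 and 124 CPM and to 90.4 and 341 CPM, Kupffer cell markers to 43.4 and 23.1 CPM and to 152 and 113 CPM, and lymphatic markers to 54.1 and 14.5 CPM and to 14.8 and 6.61 CPM. The part of any of these in the split was not tested.

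The members made up a smaller share of passing barcodes in the library labelled KO, at 15.8% (15.1 to 16.7), against 21.4% (20.7 to 22.2) in the library labelled WT (log2 ratio −0.44, −0.53 to −0.34). All sinusoidal barcodes together made up 27.3% and 39.3% (−0.53, −0.60 to −0.45). As a share of the sinusoidal barcodes, members were 58.0% (55.9 to 60.1) and 54.6% (53.1 to 56.0), a ratio of 0.09 with an interval that includes 0 (−0.01 to 0.19). The rule counts UMIs and the members labelled KO were shallower, so the shares were also taken after thinning to 2000 UMIs. Applied to the thinned counts, the whole rule found 706 and 1283 members, 28.6% and 23.9% of the sinusoidal barcodes found in the same counts, a ratio of 0.26 (0.12 to 0.39), and the ratio of shares of passing barcodes was −0.24 (−0.38 to −0.11). Members with Wnt9b or Rspo3 were 36.7% and 31.0% of the members at that depth. Shares of passing barcodes depend on how many other cells each digest released, which was not measured.

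Mef2d RNA in members stood at 82.9 CPM (746 UMIs) in the library labelled KO and 64.7 CPM (1556 UMIs) in the library labelled WT, a ratio of 0.36 (0.23 to 0.48), and 0.53 (0.20 to 0.86) after thinning. The gene is thus higher where its label says knockout, and the names of the libraries below are their labels only. Where the deleted part lies is not given, and a 5' read outside it checks nothing. In other sinusoidal barcodes the ratio of Mef2d was 0.05 (−0.17 to 0.26). The relatives Mef2a and Mef2c stood at 398 and 339 CPM (0.23, 0.17 to 0.29) and at 303 and 267 CPM (0.18, 0.12 to 0.25) in members. Of 20 measured genes of shear stress and the MEF2 pathway 18 were above 0, where 58.4% of the 12901 genes measured in members were, and the median was 0.18 against 0.06 over all genes. Past 1.5-fold were 8.12% of all genes on the higher side and 3.98% on the lower side. In that list only Hspb8 was past 1.5-fold, with 22 and 27 UMIs and 45.5% of those labelled KO in 1 barcode. The flow-responsive transcription factor genes Klf2 and Klf4 stood at 885 and 827 CPM (0.10) and at 224 and 207 CPM (0.11), and Hdac7, a repressor partner of MEF2 factors, at 248 and 193 CPM (0.36, 0.29 to 0.44).

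The Wnt ligands of the members did not differ in one direction between the libraries. Wnt2 stood at 699 CPM labelled KO and 648 CPM labelled WT (0.11, 0.07 to 0.15; −0.06 after thinning) and Rspo3 at 375 and 387 CPM (−0.04, −0.10 to 0.01). Wnt9b stood at 55.4 and 34.8 CPM (0.67, 0.51 to 0.83; 0.38 after thinning). These 3 genes chose the members, so their levels are a description. Of 9 central-side genes 7 were above 0 with a median of 0.29 (0.17 after thinning). Kit stood at 623 and 437 CPM (0.51, 0.47 to 0.56; 0.26 after thinning) and Lhx6 at 86.7 and 58.3 CPM (0.57, 0.44 to 0.70), while Fabp4 stood at 2352 and 2370 CPM (−0.01, −0.03 to 0.01). Members with Wnt9b or Rspo3, where central-side genes mostly stood higher, made up 32.7% of members labelled KO and 25.5% labelled WT. Lhx6 stood at 189 and 152 CPM in them, and at 30.02 and 22.6 CPM with Wnt2 alone. What part of the central-side ratios came from these shares was not tested. Kit had the same ratio in other sinusoidal barcodes within their intervals (0.48, 0.31 to 0.64). Of 13 portal-side genes 3 were above 0 with a median of −0.15 (−0.06 after thinning and −0.09 with each barcode weighted equally), and Efnb2 stood at 31.8 and 54.3 CPM (−0.77, −0.96 to −0.59). Dkk3 stood at 69.3 and 41.0 CPM (0.76, 0.61 to 0.90). None of the 9 central-side genes reached 1.5-fold.

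Of the 12 genes named on the higher side in members labelled KO, among 9000 eligible genes, 5 are lymphocyte genes given further on, and 6 of the other 7 come first. Sema3d, a secreted guidance protein, had 63.4 CPM labelled KO and 28.0 CPM labelled WT (1.18, 1.02 to 1.34), and 1.77 (1.24 to 2.31) in other sinusoidal barcodes. The adhesion gene Alcam had 24.0 and 9.65 CPM (1.31, 1.04 to 1.59), with 12.04% and 6.03% of its UMIs in 1 barcode. Timp2, an inhibitor of matrix proteases, had 40.1 and 18.9 CPM (1.08; 0.59 after thinning), the purine salvage gene Aprt 31.5 and 14.9 CPM (1.07), the metalloprotease gene Adam12 23.2 and 10.9 CPM (1.10) and the basement membrane gene Col4a4 25.8 and 12.5 CPM (1.05). In other sinusoidal barcodes, where 10.4% of 11728 genes were past 1.5-fold higher, 5.12% lower and 53.7% above 0, the ratios of Timp2, Aprt, Adam12 and Col4a4 were 0.83, 0.89, 1.07 and 1.05. In leukocytes, where these shares were 14.6%, 4.88% and 62.3% of 13287 genes, the ratios of Timp2, Aprt and Col4a4 were 0.07, 0.02 and −0.05. The Col4a4 ratio there rests on 16 and 12 UMIs, with an interval of −1.23 to 1.16. Alcam stood at 2.80 (2.23 to 3.39) in other sinusoidal barcodes and at 0.46 (0.24 to 0.68) in leukocytes. Whether endothelium and leukocytes differ in these ratios was not tested.

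Genes of Wnt reception within the cell were above 0 in 14 of 17 in members, where 58.4% of the 12901 genes measured were. Their median was 0.31, against 0.06 over all genes, and 0.14 after thinning. Lef1, a Wnt-responsive transcription factor gene also known from lymphocytes, led the list with 21 and 24 UMIs (1.23, 0.31 to 2.13; 0.28 after thinning).

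The other 5 named genes on the higher side are genes that lymphocytes are known to express, although no member held a Ptprc UMI. They were Gzma (9.004 and 3.37 CPM), Il2rb (8.56 and 3.45 CPM), Satb1 (8.78 and 3.58 CPM), Cd69 (13.0 and 5.87 CPM) and Itgal (11.2 and 4.99 CPM). They moved with the marker list of T and NK cells, of which 10 of 11 measured genes were above 0, with a median of 1.05. Its summed level was 101 CPM in members labelled KO and 57.2 CPM in members labelled WT, against 8369 and 6978 CPM in leukocytes, and no gene of the list was at 0. The ratio of Il2rb was 1.31, and −0.0127 after thinning.

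Of the 12 genes named on the lower side, 7 are genes that macrophages are known to express. Cd5l, a secreted Kupffer cell protein, had 6 UMIs labelled KO and 427 labelled WT (−4.74, −6.19 to −3.60). Wfdc17 (−2.96), the complement genes C1qc (−2.39), C1qa (−1.80) and C1qb (−1.55), and Lyz2 (−1.04) were lower as well, and Msr1 is given below. Of 11 measured Kupffer cell markers 0 were above 0, with a median of −2.09, summed levels of 30.3 CPM labelled KO and 124 CPM labelled WT, and none at 0. The same list had a median of −2.22 in other sinusoidal barcodes and −2.68 in leukocytes, with summed levels of 215 and 917 CPM in leukocytes. Mup17, a major urinary protein gene of hepatocytes, had 14 and 167 UMIs (−2.16). The summed hepatocyte markers were 844 and 694 CPM, but their median over single barcodes was lower labelled KO, at 217 and 299 CPM. A hepatocyte marker UMI was held by 77.9% of members labelled KO and 91.0% labelled WT. Erythroid and platelet markers summed to 1154 and 2728 CPM. Msr1, which Kupffer cells also express, had 66.7 and 136 CPM in members (−1.03, −1.15 to −0.90) and 488 and 536 CPM in other sinusoidal barcodes (−0.14, −0.22 to −0.05). In leukocytes it stood at 8.14 and 15.6 CPM. The Kupffer list was lower in members and in other sinusoidal barcodes. What part of these ratios came from the RNA of macrophages and lymphocytes was not tested.

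Of the remaining named genes, Cdk5rap1, a mitochondrial tRNA-modifying enzyme, had 3.33 CPM labelled KO and 16.2 CPM labelled WT (−2.28, −2.87 to −1.75). It had the same direction in other sinusoidal barcodes (−2.24) and leukocytes (−2.02). Socs3, a feedback inhibitor of cytokine signalling, stood at 68.1 and 128 CPM (−0.91, −1.04 to −0.78), and at −0.91 in other sinusoidal barcodes and −0.31 in leukocytes. Ednrb, the endothelin receptor B gene, stood at 24.7 and 49.0 CPM (−0.99; −0.68 with other lineage barcodes left out) and Clca3a1 at 13.1 and 29.4 CPM (−1.17). Ly6a, a surface antigen of capillary endothelium, stood at 305 and 479 CPM (−0.65, −0.71 to −0.59; −0.17 after thinning), and was chosen after its values were seen.

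**Figure D4:**
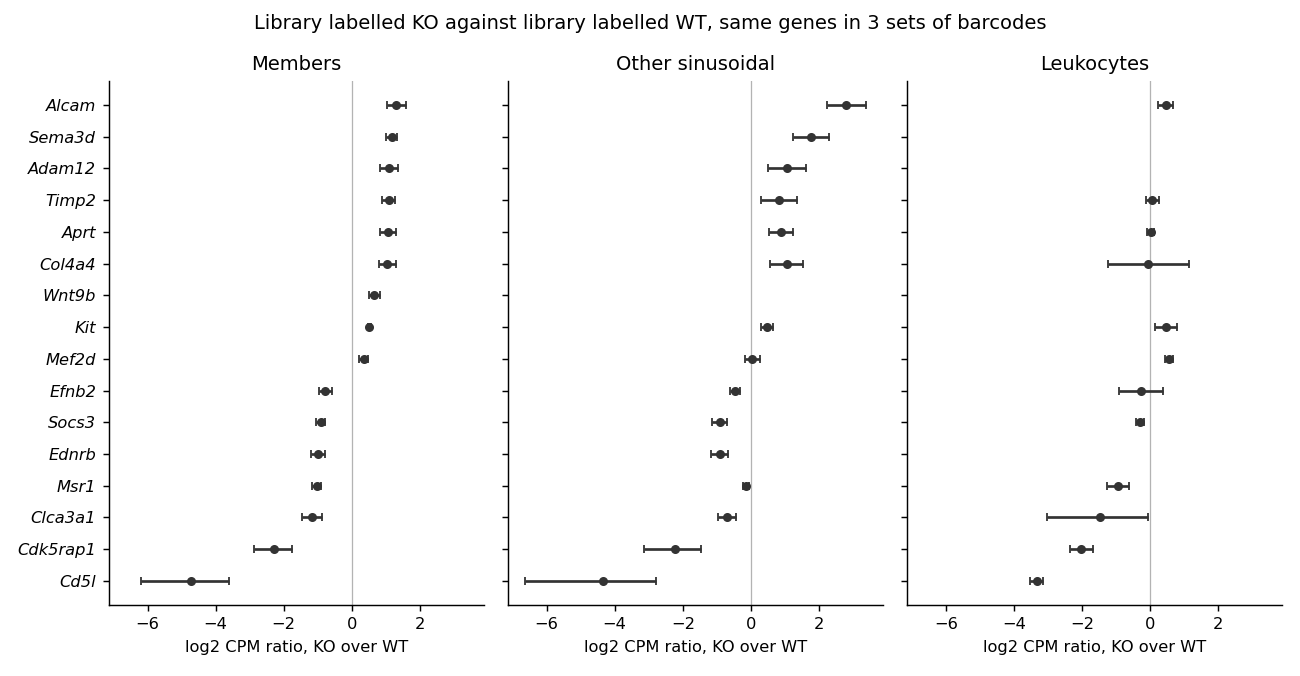
log2 CPM ratio of the library labelled KO over the library labelled WT, with exact 95% counting intervals, for 16 genes in members (left), other sinusoidal barcodes (middle) and leukocytes (right); no point is drawn where a gene had under 20 UMIs or, for Wnt9b, where the rule set it to 0. Sema3d and Alcam lie above 0 and Socs3 and Cdk5rap1 below 0 in each set where they are drawn, while Mef2d lies above 0 in members and leukocytes and near 0 in other sinusoidal barcodes.

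Genes that switch on quickly after stimulation or tissue handling, the immediate-early genes, were above 0 in 7 of 20 in members, with a median of −0.30 (−0.04 after thinning). In other sinusoidal barcodes the median was −0.29, and in leukocytes all 20 were above 0 with a median of 0.46. Fos stood at 262 and 398 CPM (−0.60, −0.67 to −0.54), Junb at 353 and 527 CPM (−0.58) and Egr1 at 146 and 213 CPM (−0.54; −0.04 after thinning) in members labelled KO and WT. The orphan nuclear receptor gene Nr4a1, a known MEF2 target in lymphocytes, was higher at 19.0 and 13.6 CPM (0.48, 0.20 to 0.75). Interferon response genes were above 0 in 9 of 30 with a median of −0.09, and the chemokine gene Cxcl10 stood at 178 and 242 CPM (−0.44), with 11.1% and 1.67% of its UMIs in 1 barcode. Sinusoidal identity genes were above 0 in 16 of 23 with a median of 0.09 and none past 1.5-fold. Stab1 stood at 1732 and 1415 CPM (0.29, 0.26 to 0.32), and the lectin gene Clec4g of the rule at 3273 and 4115 CPM (−0.33, −0.35 to −0.31). Genes of nuclear-encoded oxidative phosphorylation were above 0 in 3 of 24 with a median of −0.12 and none past 1.5-fold.

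**Figure D5:**
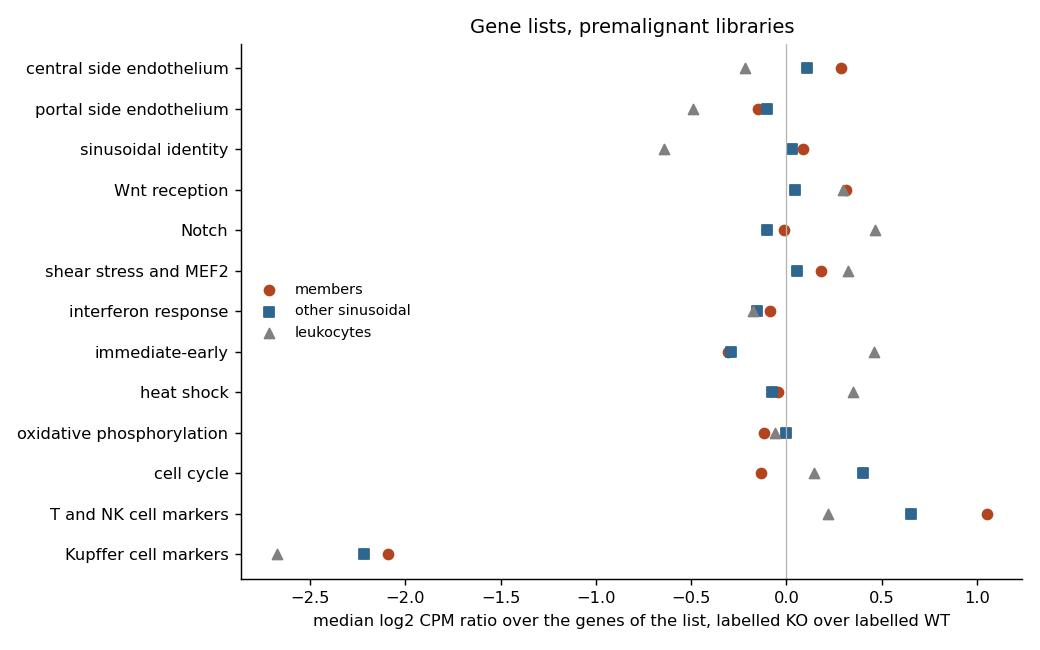
Median log2 CPM ratio of the library labelled KO over the library labelled WT for 13 gene lists (rows), in members (circles), other sinusoidal barcodes (squares) and leukocytes (triangles). Members and other sinusoidal barcodes lie close together in most rows, and immediate-early genes lie at −0.30 in members and 0.46 in leukocytes.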

How the data were processed

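The authors deposited raw UMI counts per gene and barcode; per the file headers the matrices come from Cell Ranger 3.0.1. In the submitters' processing notes stand bcl2fastq 2.20.0 and, with no role given, mm10 and GRCh38. Of 31053 listed genes, all enter the sums. Members, gene lists and the rule for naming genes were chosen with earlier results of these data known. UMIs were summed over each set of barcodes, scaled to a fixed total (CPM) and compared as log2 ratios with exact conditional binomial intervals (Python 3.11.15, scipy 1.17.1). The intervals were tested on simulated independent counts, the model they assume. That test cannot show how they hold where UMIs gather in single barcodes. Shares have Clopper-Pearson intervals. Genes with at least 20 UMIs in a comparison were measured, and past 1.5-fold was the call. Named genes had at least 100 UMIs, detection in 5% of barcodes and no barcode over 20% of their UMIs in either group. They were ranked by the interval bound nearest 0 and 12 were taken each way, and for members over other sinusoidal barcodes the bound had to hold in both libraries. Genes of the rule were left out of lists. No doublet caller was run; one alternative leaves out barcodes with at least 2 UMIs of any of 13 genes of other lineages or over 20000 UMIs. Other alternatives were thinning to 2000 UMIs (seed 1), other thresholds and other scalings. Animals per library are not given, so 1 library per group is 1 sample. Of the genes named by the rule, 1 is not reported here.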

Additional observations from a re-analysis of the deposited data

Results flagged for a closer look

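At full depth, immediate-early genes differed in direction between members and leukocytes: the list's median ratio of the library labelled KO over the library labelled WT was −0.30 in members and 0.46 in leukocytes. The member median was −0.04 after thinning to 2000 UMIs and −0.16 at a Wnt sum of at least 4. The leukocyte median was taken at full depth only. The difference was not tested.

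The same rule applied to the eHCC libraries, which enter no comparison above, found 4 of 8443 passing barcodes labelled KO (0.0474%) and 16 of 9858 labelled WT (0.162%). A count of 0 would allow up to 0.0355% and 0.0304% there, which any count of 4 or more passes. The exact interval of the share labelled KO, 0.0129% to 0.121%, includes that limit, and that of the share labelled WT, 0.0928% to 0.263%, lies above it. Leukocytes made up 7680 and 9125 of the passing barcodes.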

How the results depend on the processing

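No paired analysis was possible because each group is 1 library. Over 12 alternatives, 1975 of 2443 values were classed as unchanged. Genes and shares had to stay within their counting interval, and counts within 1.5 times. List medians had to stay within an interval as wide as that of a typical gene of the list. The 31 medians over all genes and 31 shares of genes above 0 had bounds too wide to leave, so they were classed as unchanged in every case. After thinning to 2000 UMIs the ratio of member shares, labelled KO over labelled WT, was −0.24 of passing barcodes and 0.26 of sinusoidal barcodes, and that of Mef2d was 0.53. Genes past 1.5-fold higher labelled KO in members numbered 598, against 1047, and genes lower in members than in other sinusoidal barcodes labelled KO numbered 665, against 1328. That last count was 657 at a sinusoidal sum of at least 8. Without barcodes of other lineages the share ratio was −0.27, the higher count 625 and the lower count labelled KO 754. With a minimum of 5 UMIs, labelled KO over labelled WT had 1944 genes higher and 863 lower. Members over other sinusoidal barcodes then had 1159 higher and 2351 lower labelled KO, and 1209 and 1817 labelled WT. With 100 UMIs these were 316 and 175, then 334 and 444, and 308 and 476. Signs turned for Il2rb (−0.0127), Wnt2 (−0.0565) and Dll4 (0.0807) after thinning, and for Stab2 at a Wnt sum of at least 4 (−0.0127) and under scaling by the median of ratios (−0.00096). Clu turned sign between members and other sinusoidal barcodes labelled WT after thinning (0.27), at a sinusoidal sum of at least 8 (2.16 labelled KO, 0.71 labelled WT) and without other lineages (0.73), where its ratio labelled KO over labelled WT in members was −0.30. The cause was not tested. Depth limits genes under 20 UMIs.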
